A study of Mus musculus with 9 samples.

Results

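Leukocyte integrins and the selectin ligand PSGL-1 carry blood cells along and out of vessels, and the 8 genes described here encode 7 integrin subunits (Itgb2, Itgam, Itgal, Itgax, Itga4, Itgb1 and Itgb7) and PSGL-1 (Selplg). They were chosen by symbol, each matched 1 of the 54532 Ensembl genes of the deposited table, and all 8 passed the filter on low values that left 12289 genes for testing. The values are FPKM, fragments per kilobase of exon and per M (mega) fragments of a library total. That total was scaled between libraries and differs from each library's own fragment count. The RNA sequencing was of myeloid cells (labelled as white cells) of C57BL/6 mice aged 6 to 8 weeks. There were 3 libraries in each of 3 groups: KO, of Socs3 knockout genotype, and Gr_1 and fl, which share a wild type label. The labels explain neither group name, nor how the knockout was made, nor in which cells. They also do not tie the libraries of a group to separate mice, so a p-value here weighs a difference against the spread of these libraries, and that spread may be technical.

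Integrins are paired receptors of 1 alpha and 1 beta chain that bind ligands on vessel walls, matrix and other cells once signals inside the cell switch them on. Beta 2 (CD18) is found on leukocytes and pairs with alpha L as LFA-1, with alpha M as Mac-1, with alpha X as CD11c/CD18, and with alpha D. Alpha 4 pairs with beta 1 as VLA-4, a receptor for VCAM-1 and fibronectin, or with beta 7 as the receptor for MAdCAM-1 of gut vessels. PSGL-1 binds P-selectin and the other selectins and mediates rolling before integrins arrest the cell.

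Several facts about the libraries bear on every comparison below. The targeted gene, Socs3, had a higher level in libraries labelled KO (8.12 ± 1.25 FPKM, against 3.76 ± 0.318 in fl, mean ± SD, n = 3 each), so each direction given for KO rests on its label. In the same comparison Lyz2 was 163-fold lower in KO. Library KO B carried Xist and no fragment of 4 Y-linked genes, KO A carried the Y-linked genes and almost no Xist, and KO C carried both. The 4 Y-linked genes summed to 30.7 to 39.3 FPKM in Gr_1 and 16.6 to 27.3 FPKM in fl, where Xist reached at most 0.0104 FPKM, so Xist was present in KO libraries alone. KO C may share RNA with the other two, in which case the KO libraries are not independent, and values without it are given beside several results. Recovered depth lay between 18.3 and 21.5 M fragments per library. In bulk samples such as these, fewer cells of a type and less RNA per cell cannot be told apart.

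The groups also differed in the markers of blood cell types. The 15 neutrophil markers summed to 76491 to 104788 FPKM in KO, 173009 to 175934 in Gr_1 and 68642 to 77008 in fl. Of them, 6 were called higher and 0 lower in KO against fl, 11 higher and 3 lower in Gr_1 against fl, and 3 higher and 11 lower in KO against Gr_1. The 12 monocyte and macrophage markers went the other way, summing to 698 to 765 FPKM in KO, 477 to 529 in Gr_1 and 1025 to 1159 in fl, and of the 11 tested 9 were lower in KO than in fl and 11 lower in Gr_1 than in fl. The 10 dendritic cell markers summed to 33.4 to 35.7 FPKM in KO, 17.3 to 24.9 in Gr_1 and 56.0 to 58.3 in fl, and of the 7 tested 1 was higher and 4 lower in KO against fl, and 1 higher and 5 lower in Gr_1 against fl. The dendritic marker called higher in KO, Siglech, passed the filter on low values through KO alone, so its call was favoured by the filter. Leaving out KO C gave 5 neutrophil markers higher, 7 monocyte and macrophage markers lower, and 0 dendritic cell markers higher and 3 lower in KO against fl. No marker of these lists was at 0 in every library of a group. For the counts here and in the next paragraph, the share called of all genes tested was 11.0% in KO against fl. It was 61.4% in Gr_1 against fl and 55.7% in KO against Gr_1.
Markers of other cells moved too. The 13 eosinophil, basophil and mast cell markers summed to 5372 to 10392 FPKM in KO, 1582 to 2020 in Gr_1 and 4677 to 9721 in fl, the 14 T and NK cell markers to 144 to 271, 26.5 to 30.6 and 142 to 205 FPKM in KO, Gr_1 and fl, and the 10 B and plasma cell markers to 215 to 267, 707 to 777 and 252 to 289 FPKM. The 11 erythroid and platelet markers, 1 of which was at 0 throughout, summed to 108 to 113, 143 to 220 and 44.9 to 73.0 FPKM in KO, Gr_1 and fl. In KO against fl, 7 of the 13 eosinophil, basophil and mast cell markers, 8 of 10 tested T and NK cell markers, 0 of 10 B and plasma cell markers and 3 of 10 tested erythroid and platelet markers were called, all higher. Of the 10 T and NK cell markers, 3 passed the filter through KO alone, which favours a call there, and 6 of the other 7 were called higher. Of the B and plasma cell markers, 1 was higher and 1 lower at an unadjusted limma p under 0.05. Without KO C the counts of called markers were 2 of 13, 4 of 7, 0 of 10 and 0 of 9 tested, and over all fits that left out 1 library they were 2 to 7, 4 to 7, 0 to 1 and 0 to 3. The 1 B and plasma cell marker, called without KO A, was lower, and the calls of the other lists were all higher. In Gr_1 against fl, 0 were higher and 5 lower in the eosinophil, basophil and mast cell list, 2 higher and 4 lower in the T and NK cell list, and 10 higher and 0 lower in each of the B and plasma cell and the erythroid and platelet lists. The part of cell makeup in the results below was not tested.

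Promoter sequence is shown for the subunit that rose most in Gr_1 against fl on the log2 scale and for the subunit that fell most, from RefSeq on GRCm38.p6, which held 5 of the 8 members (Itgam, Itgax, Itga4, Itgb1 and Itgb7). Each line gives the 150 bases before the RefSeq start, 5′ to 3′ on the gene's strand, and capitals mark GAGGAA, the core of sites for the myeloid factor PU.1, on either strand.
Itgam, chr7:128062490-128062639, plus strand: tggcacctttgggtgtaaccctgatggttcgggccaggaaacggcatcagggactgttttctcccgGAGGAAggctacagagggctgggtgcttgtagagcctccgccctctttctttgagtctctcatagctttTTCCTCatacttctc
Itgb7, chr15:102231936-102232085, minus strand: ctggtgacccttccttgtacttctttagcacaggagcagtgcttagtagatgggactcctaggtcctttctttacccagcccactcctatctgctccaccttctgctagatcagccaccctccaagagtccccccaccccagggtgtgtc
The Itgam stretch holds GAGGAA once on each strand and the Itgb7 stretch holds none. Over the 250 bases before the start, searched on both strands, Itgb1 also held GAGGAA, and Itgax and Itga4 did not. This motif was present in 23.3% of 32851 RefSeq windows of the same length. The RUNX core TGTGGT was found only in Itga4 among the 5 members, against 14.0% of windows, and the GC box GGGCGG in Itgam, Itga4 and Itgb1, against 32.7% of windows. A match is a description of letters and not of binding.

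The beta 2 chain and its alpha partners were higher in Gr_1 than in fl or KO, except for Itgax against KO, and none of them passed the test in KO against fl. Itgb2 (ENSMUSG00000000290, chr10:77530252-77565708, plus strand; GRCm38, GENCODE M21, as for all genes below), the chain that all CD11 receptors share, was the most abundant member in every library, with 479.7, 328.5 and 399.4 FPKM in KO A, B and C, 812.8, 805.7 and 748.8 FPKM in Gr_1 and 361.8, 351.7 and 375.6 FPKM in fl. Every Gr_1 library was above every other library, and the KO libraries lay on either side of the fl range. In KO, Itgb2 was the gene with the 82nd highest mean FPKM of the table, in Gr_1 the 38th and in fl the 102nd. The 3 groups summed to 77400, 121008 and 67779 Itgb2 fragments for KO, Gr_1 and fl, so counting error is small beside the spread between libraries.
Itgb2 rose 2.17-fold in Gr_1 against fl, a change of 1.12 ± 0.13 (SE) in log2(FPKM + 1) (limma, adjusted p = 9.3e-05), and fell 1.96-fold in KO against Gr_1 (-0.99 ± 0.13, adjusted p = 0.00029). KO against fl did not pass the threshold of an adjusted p under 0.05: the change was 0.13, with a 95% interval of -0.16 to 0.42 (adjusted p = 0.551). Without KO A this change was -0.0027, so its sign rests on that library. The neutrophil marker sum was also highest in Gr_1, and its part in the rise of the beta 2 genes was not tested.

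Itgam (ENSMUSG00000030786, chr7:128062640-128118491, plus strand) encodes alpha M, the CD11b chain of Mac-1 on neutrophils and monocytes. It held 79.4, 55.1 and 66.0 FPKM in KO, 136.6, 136.0 and 135.4 FPKM in Gr_1 and 57.4, 58.4 and 58.4 FPKM in fl. The Gr_1 and fl libraries were each close together, with coefficients of variation of 0.426% and 1.0%, while the KO libraries spread over 18.2%. Itgam rose 2.34-fold in Gr_1 against fl (log2 change 1.21 ± 0.11, limma adjusted p = 3.1e-05) and fell 2.04-fold in KO against Gr_1 (-1.03 ± 0.11, adjusted p = 0.00013). In KO against fl the change was 0.18, with a 95% interval of -0.07 to 0.44 (adjusted p = 0.343). Without KO B it was 0.31 and reached an adjusted p of 0.05 after rounding, just under the threshold.
Of the 5024 exon bases of Itgam, 3450 (68.7%) are also annotated to the overlapping gene Gm49368 on the same strand, which held 0.103, 0.380 and 0.0504 FPKM on average in KO, Gr_1 and fl. At these low levels the shared fragments cannot have been counted in full for Gm49368. Whether they were given to Itgam or dropped is not stated in the labels or the table. If they were dropped, the level of Itgam is too low by an unknown amount.

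Itgal (ENSMUSG00000030830, chr7:127296260-127335138, plus strand) encodes alpha L of LFA-1, which binds ICAM-1. It held 71.8, 53.1 and 63.3 FPKM in KO, 98.2, 102 and 92.2 FPKM in Gr_1 and 70.9, 67.8 and 70.3 FPKM in fl. Gr_1 stood above all other libraries, and KO B and KO C lay below every fl library. The rise in Gr_1 against fl was 1.40-fold (log2 change 0.48 ± 0.10, limma adjusted p = 0.00328), less than that of Itgam, and the fall in KO against Gr_1 was 1.55-fold (-0.63 ± 0.10, adjusted p = 0.00089). KO against fl gave -0.16, with a 95% interval of -0.39 to 0.07 (adjusted p = 0.361).

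Itgax (ENSMUSG00000030789, chr7:128129547-128150657, plus strand) encodes alpha X, the CD11c chain used as a dendritic cell marker, and was the least abundant member. Its levels were 5.13, 3.25 and 3.63 FPKM in KO, 5.07, 5.83 and 4.50 FPKM in Gr_1 and 3.25, 3.50 and 2.77 FPKM in fl. The Gr_1 and fl libraries did not overlap, and KO A lay within the Gr_1 range. Itgax rose 1.62-fold in Gr_1 against fl (log2 change 0.55 ± 0.15, limma adjusted p = 0.00938), while the dendritic cell marker sum was lower there. Neither KO against fl (0.25, interval -0.08 to 0.58, adjusted p = 0.321) nor KO against Gr_1 (-0.31, interval -0.64 to 0.02, adjusted p = 0.103) passed, although KO against Gr_1 did without KO A (-0.46, adjusted p = 0.0119).

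Itgad (ENSMUSG00000070369, chr7:128154376-128223816, plus strand), which encodes the remaining beta 2 partner alpha D and is not a member, held 0.346, 0.337 and 0.275 FPKM in KO, 1.67, 1.58 and 1.41 FPKM in Gr_1 and 0.171, 0.246 and 0.168 FPKM in fl. It passed the filter only through Gr_1, and the counts behind it were 91, 352 and 54 fragments over the KO, Gr_1 and fl groups. Gr_1 stood above both other groups, with a ratio of mean FPKM to fl of 7.97. Cox6a2 lies within the Itgad locus on the opposite strand. Itgam, Itgax and Itgad lie side by side over 161 kilobases of chromosome 7, and Itgal lies 728 kilobases from Itgam.

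**Figure D1:**
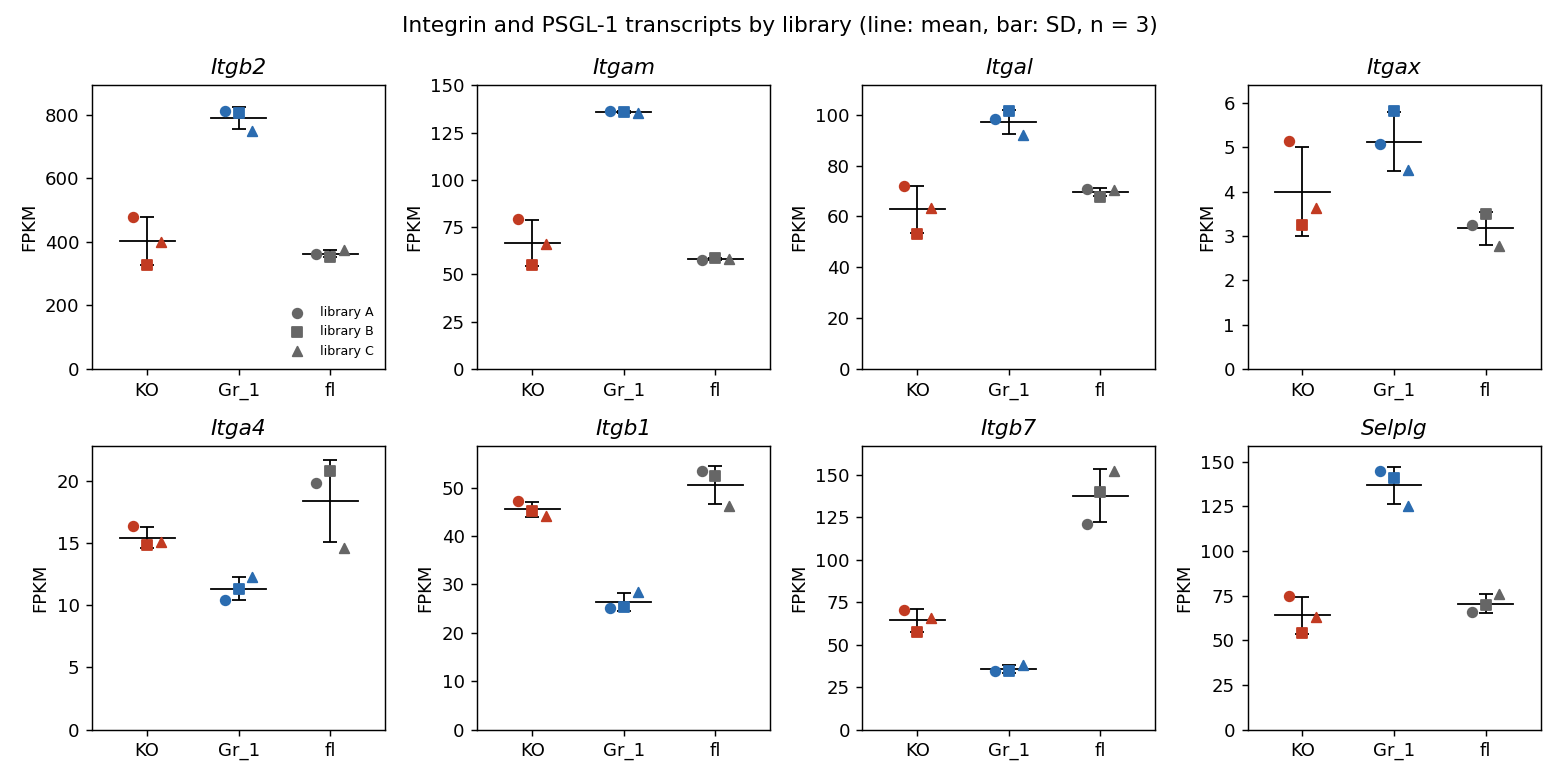
FPKM of the 8 members in each library (red KO, blue Gr_1, grey fl; circle, square and triangle are libraries A, B and C), with the mean as a line and the SD as a bar (n = 3). In Itgb2, Itgam, Itgal and Selplg the Gr_1 libraries stand above all others, while in Itgb7 the KO libraries, at 57.2 to 70.4 FPKM, lie between Gr_1 and fl.

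The members that pair as VLA-4 and as the MAdCAM-1 receptor were lower in Gr_1 than in fl, and beta 7 was also lower in KO than in fl. Itgb7 (ENSMUSG00000001281, chr15:102215995-102231944, minus strand) held 70.4, 57.2 and 65.7 FPKM in KO, 34.3, 34.5 and 38.2 FPKM in Gr_1 and 121, 140 and 152 FPKM in fl. No 2 of the 3 groups overlapped, with fl highest, KO between and Gr_1 lowest. The means rest on 11275, 4951 and 23248 fragments over the KO, Gr_1 and fl groups.
Itgb7 fell 2.14-fold in KO against fl, a log2 change of -1.09 ± 0.10 (interval -1.32 to -0.85; limma adjusted p = 0.00074), and was the 88th largest fall of the 12289 genes tested. It was lower in 3 of 3 KO libraries. It fell 3.87-fold in Gr_1 against fl (-1.92 ± 0.10, adjusted p = 2.6e-06) and was 1.81-fold higher in KO than in Gr_1 (0.83 ± 0.10, adjusted p = 0.00026). Without KO C, the KO against fl change was -1.10 (adjusted p = 0.0062), and over the 17 alternative settings it stayed between -1.17 and -0.94 with adjusted p values of at most 0.00622. Some of these settings, such as the filters and the replicate block, cannot move the change itself. The monocyte and macrophage and the dendritic cell marker sums ran in the same order of groups as Itgb7, and their part in its fall was not tested.

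Itgb1 (ENSMUSG00000025809, chr8:128685654-128733200, plus strand) encodes the widely expressed beta 1 chain. It held 47.3, 45.2 and 44.2 FPKM in KO, 25.2, 25.3 and 28.5 FPKM in Gr_1 and 53.3, 52.4 and 46.1 FPKM in fl. Gr_1 lay below both other groups, and KO A lay within the fl range. Itgb1 fell 1.92-fold in Gr_1 against fl (-0.92 ± 0.08, limma adjusted p = 1.9e-05) and rose 1.73-fold in KO against Gr_1 (0.77 ± 0.08, adjusted p = 9e-05). KO against fl gave -0.15, with an interval of -0.32 to 0.03 (adjusted p = 0.271).

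Itga4 (ENSMUSG00000027009, chr2:79255426-79333123, plus strand) encodes alpha 4, the partner of both. It held 16.4, 14.8 and 15.1 FPKM in KO, 10.4, 11.3 and 12.2 FPKM in Gr_1 and 19.8, 20.7 and 14.6 FPKM in fl. Library fl C was lower than all KO libraries, which put the groups over each other. Itga4 fell 1.63-fold in Gr_1 against fl (-0.64 ± 0.12, limma adjusted p = 0.00182) and was 1.36-fold higher in KO than in Gr_1 (0.42 ± 0.12, adjusted p = 0.0182). The KO against Gr_1 call was lost without KO A (0.38, adjusted p = 0.0531) and without Gr_1 A (0.36, adjusted p = 0.0641). KO against fl gave -0.22, with an interval of -0.50 to 0.06 (adjusted p = 0.289), and was called without fl C (-0.37, adjusted p = 0.0247). The 3′ end of the Itga4 locus overlaps Cerkl on the opposite strand, which held 0.191, 0.105 and 0.195 FPKM on average in KO, Gr_1 and fl. Whether counting used strand is not stated, so reads of the pair cannot be told apart there.

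Selplg (ENSMUSG00000048163, chr5:113818536-113832644, minus strand), the PSGL-1 gene, was highest in Gr_1, as the beta 2 genes were. It held 74.9, 54.1 and 63.2 FPKM in KO, 144, 141 and 125 FPKM in Gr_1 and 65.7, 69.9 and 76.1 FPKM in fl. Only the Gr_1 libraries stood apart. Selplg rose 1.94-fold in Gr_1 against fl (0.95 ± 0.12, limma adjusted p = 0.00016) and fell 2.14-fold in KO against Gr_1 (-1.09 ± 0.12, adjusted p = 0.00013). KO against fl gave -0.15, with an interval of -0.42 to 0.12 (adjusted p = 0.474).

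**Figure D2:**
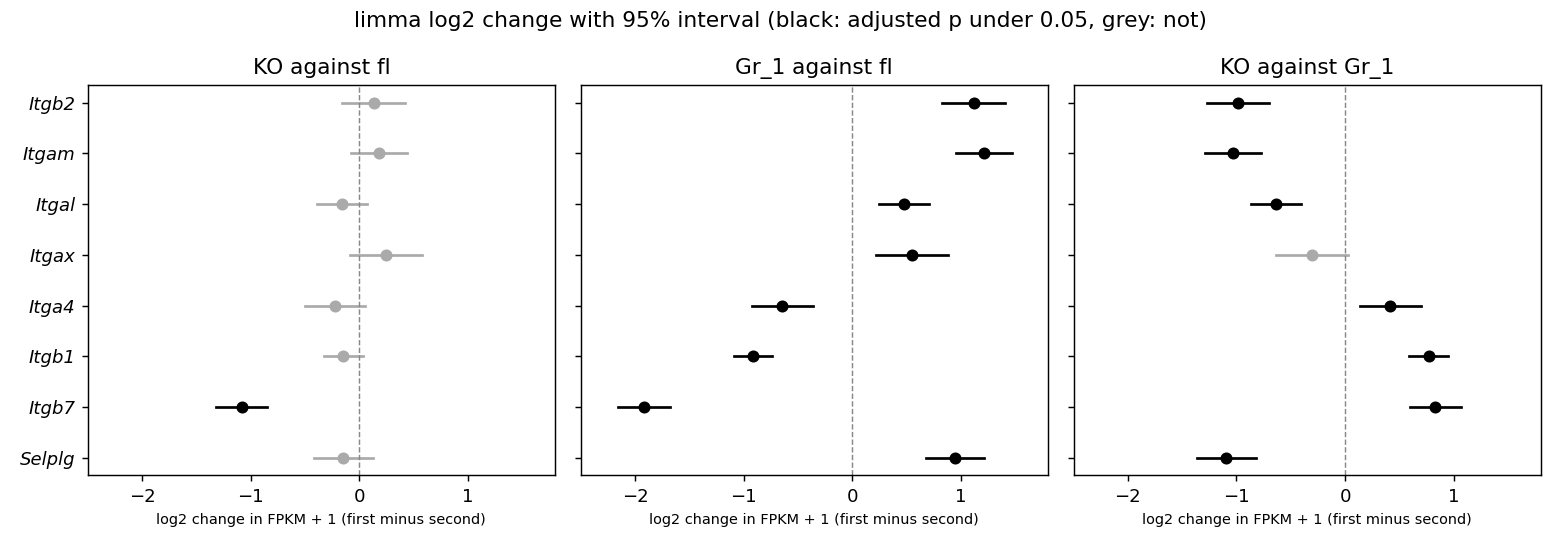
Fitted log2 change of each member in the 3 comparisons with its 95% interval, black where the adjusted p was under 0.05 and grey where it was not. In KO against fl only Itgb7, at -1.09, is black, and in Gr_1 against fl all 8 are.

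The members' counts were set against those of all genes tested. In KO against fl, 1 of 8 members was called, Itgb7, against 11.0% of all genes called, and its direction, lower, was that of 6.52% of all genes, where 4.48% were called higher and 0 members were. The count at an unadjusted limma p under 0.05 was also 1 of 8, and voom on recovered fragments called 1. The libraries of KO and fl did not overlap in 1 of 8 members, against 31.4% of all genes tested. In Gr_1 against fl, 8 of 8 members were called, against 61.4% of all genes, with 5 higher and 3 lower against 30.0% and 31.4%, and 8 of 8 did not overlap, against 67.5%. In KO against Gr_1, 7 of 8 were called, against 55.7%, with 3 higher and 4 lower against 26.7% and 28.9%, and 7 of 8 did not overlap, against 68.2%. Median changes of the members were -0.15, 0.51 and -0.47 in KO against fl, Gr_1 against fl and KO against Gr_1, and those of all genes were -0.01, -0.03 and 0.01. Of the calls in KO against fl 40.8% were higher and in KO against Gr_1 48.0%, while scaling without the 10 most abundant genes gave 58.5% and 65.2%. That scaling moved the median of all genes by 0.15 in KO against Gr_1, and relative to that shift Itgb2 was at -0.95 and Itgb7 at 0.87. KO and Gr_1 were compared with the same fl libraries, so these counts are not independent of each other. For a single gene the exact two-sided permutation test gave 0.1 wherever groups did not overlap, the smallest p that 3 against 3 libraries allow.

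The KO libraries varied more than the fl libraries in the beta 2 group and Selplg. Coefficients of variation of Itgb2 were 18.8% in KO, 4.45% in Gr_1 and 3.30% in fl, and those of Selplg 16.3%, 7.54% and 7.38%, while Itga4 and Itgb1 varied less in KO (5.44% and 3.45%) than in fl (18.0% and 7.75%). KO A was above KO B in all 8 members, and in 6463 of the 12289 genes tested. The neutrophil marker sum ran in the same order as Itgb2, at 104788, 76491 and 88243 FPKM in KO A, B and C. So did the monocyte and macrophage (765, 698 and 723 FPKM), dendritic cell (35.7, 33.4 and 34.2) and B and plasma cell sums (267, 215 and 233). The eosinophil, basophil and mast cell sum and the T and NK cell sum ran the other way, and the erythroid and platelet sum in neither order. KO C lay between the other two in 7 of 8 members, against 61.4% of all genes tested. Whether the spread comes from cell makeup was not tested.

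FPKM is per length, so the levels of partner genes were set side by side within a library. For Itgam this holds only if fragments shared with Gm49368 were counted for it, which is not known. Itgam made up 50.7%, 49.3% and 49.6% of the summed FPKM of the 4 beta 2 alpha genes in KO, 56.6%, 55.5% and 58.0% in Gr_1 and 43.6%, 45.0% and 44.4% in fl. The groups did not overlap, and the difference of KO minus fl was 5.53 points, of Gr_1 minus fl 12.4 points and of KO minus Gr_1 -6.86 points (exact permutation p = 0.1 for each, the smallest allowed). Itgal took the complementary share, 47.0 ± 0.98% in KO, 40.5 ± 0.999% in Gr_1 and 53.1 ± 0.868% in fl. The summed level of the 4 alpha genes was 133.9 ± 22.4 FPKM in KO, 240.0 ± 5.90 FPKM in Gr_1 and 131.1 ± 0.985 FPKM in fl, and KO against fl gave an exact permutation p of 0.7. The level of Itgb2 per unit of summed alpha was 3.0 ± 0.062 in KO, 3.29 ± 0.080 in Gr_1 and 2.77 ± 0.076 in fl. All of these ratios use the level of Itgam, which is uncertain because most of its exon bases are shared with Gm49368. If shared fragments were dropped, the Itgam share is too low and the Itgal share and the Itgb2 ratio are too high. Which of Itgam and Itgal is the more abundant therefore cannot be read from these shares. They are ratios of transcripts, and surface pairs were not measured.

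For the beta chains that share alpha 4, Itgb7 made up 59.8%, 55.9% and 59.8% of the Itgb1 and Itgb7 sum in KO, 57.6%, 57.7% and 57.2% in Gr_1 and 69.5%, 72.8% and 76.7% in fl. KO was 14.5 points lower than fl and Gr_1 15.5 points lower than fl (exact permutation p = 0.1 for both), and KO exceeded Gr_1 by 0.98 points (exact permutation p = 0.4). The sum of both chains was 110.0 ± 7.64 FPKM in KO, 62.0 ± 4.09 FPKM in Gr_1 and 188 ± 12.3 FPKM in fl. The ratio of Itgb2 to Itgb7 FPKM was 6.21 ± 0.550 in KO, 22.2 ± 2.27 in Gr_1 and 2.65 ± 0.285 in fl.

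**Figure D3:**
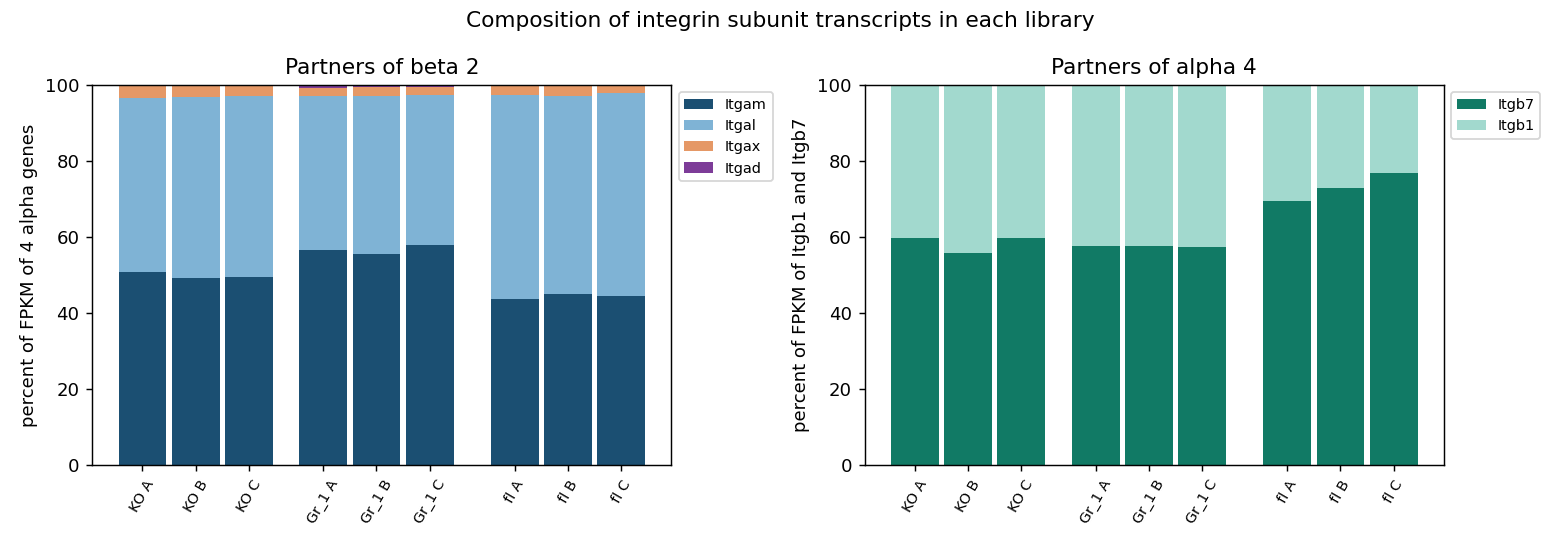
Stacked bars for each library of the share of the 4 beta 2 alpha genes (left, Itgam, Itgal, Itgax and Itgad, in percent of their summed FPKM) and of Itgb7 and Itgb1 (right). The Itgam share was 49.8 ± 0.742% in KO, 56.7 ± 1.24% in Gr_1 and 44.3 ± 0.694% in fl, and Itgb7 was below 60% of the beta 1 and beta 7 sum in all KO and Gr_1 libraries. The Itgam share may be too low, because most Itgam exon bases are shared with Gm49368.

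Genes whose levels followed the members most closely were found by the mean absolute difference of centred log2(FPKM + 1) over the 9 libraries, as a description of likeness only. Only tested genes with a plain symbol were ranked, so Gm and Rik names and number-led or accession-like names were left out. The nearest to Itgb2 was Itgam, at 0.0365, followed by Ampd3 at 0.0381, and Itgam was nearest to Khnyn (0.0363) and then Itgb2. Itgal was nearest to Abca7 (0.0360) and Apbb1ip (0.0405), which encodes RIAM, an adaptor of integrin activation. Itgb7 was nearest to Naaa (0.0679) and Apba1 (0.0879), and Itgb1 to Fam102b (0.0531) and Isoc1 (0.0588). Itga4 was nearest to Naip5 (0.0474) and Tmem68 (0.0573), Itgax to Sept5 (0.0744) and Tmem220 (0.0746), and Selplg to Msrb1 (0.0497) and Aldh3b1 (0.0536).

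Other adhesion genes were given from lists taken from textbook knowledge. Of 8 other integrin subunits tested, 1 was called higher and 3 lower in KO against fl, and 2 higher and 3 lower in Gr_1 against fl, with medians of 0.05 and -0.02. These counts include Itgad, which passed the filter through Gr_1 alone, and Itga1, which passed through fl alone, so that their calls were favoured by the filter. Among the other 6, 1 was higher and 2 lower in each comparison. In Gr_1 against fl the calls among all 8 were 62.5% of the list, against 61.4% of all genes tested. The Gr_1 share was thus near that of all genes. The counts in KO against fl stand beside 11.0% of all genes tested. Itgb5, which encodes beta 5, fell in both, to 4.28 FPKM in KO and 3.61 FPKM in Gr_1, against 9.51 FPKM in fl (KO against fl -1.0, limma adjusted p = 0.00277; Gr_1 against fl -1.19, adjusted p = 9.7e-05). Itga5, the alpha 5 chain of the fibronectin receptor, fell in both (-0.44, adjusted p = 0.042, and -1.48, adjusted p = 1.2e-05). Itga1, which encodes alpha 1 of a collagen receptor, held 0.885 FPKM in KO, 0.179 FPKM in Gr_1 and 1.77 FPKM in fl. Itga6 rose in KO (0.33, adjusted p = 0.0467), and Itgb3 rose in Gr_1 (0.95, adjusted p = 3.4e-05) but did not pass in KO (0.25, adjusted p = 0.12). The calls of Itga5, Itga1 and Itga6 in KO against fl were lost in 7 of 9, 6 of 6 and 8 of 9 fits that each left out 1 library, whereas that of Itgb5 held in all 9. In KO against fl the list had 0 to 2 higher and 1 to 2 lower over those fits. It had 0 higher and 1 lower when KO C, fl A, fl B or Gr_1 B was left out, although Gr_1 is outside that comparison.

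Of 16 selectin and selectin ligand synthesis genes tested, 3 were called higher and 3 lower in KO against fl, and 7 higher and 3 lower in Gr_1 against fl. These calls were 37.5% and 62.5% of the list, against 11.0% and 61.4% of all genes tested. The Gr_1 share was thus near that of all genes. Fut7, the fucosyltransferase that makes selectin ligands functional on PSGL-1, gave -0.06 in KO against fl (adjusted p = 0.76) and -0.14 in Gr_1 against fl (adjusted p = 0.28), with 9.92, 9.35 and 10.5 FPKM in KO, Gr_1 and fl. Cd24a, a P-selectin ligand, rose to 280 FPKM in KO and 539 FPKM in Gr_1, against 208 FPKM in fl (0.42, adjusted p = 0.0236, and 1.37, adjusted p = 7.0e-06). Gcnt1, which builds the core 2 O-glycans of PSGL-1, rose by 0.36 in KO against fl (adjusted p = 0.0347) and to 15.8 FPKM in Gr_1, against 6.31 FPKM in fl (adjusted p = 9.9e-06). The KO calls of Cd24a and Gcnt1 were lost in 4 and 8 of 9 fits that each left out 1 library. The sialyltransferase gene St3gal6 was higher in both (0.80 and 2.34), with 1.18 FPKM in KO and 5.25 FPKM in Gr_1, against 0.23 FPKM in fl, and its KO call was lost without KO C (adjusted p = 0.0559). St3gal4, another sialyltransferase of selectin ligands, fell by 0.34 and 0.40, and C1galt1c1, the chaperone of the core 1 O-glycan enzyme, by 0.77 and 1.35. The KO call of St3gal4 held in all 9 fits that each left out 1 library, and that of C1galt1c1 was lost without KO C, without fl A and without fl B. Spn, which encodes the sialoglycoprotein CD43, fell in Gr_1 against fl (-0.94, adjusted p = 0.000354) and gave -0.07 in KO against fl (adjusted p = 0.77). Tpst1, a sulfotransferase that modifies PSGL-1, fell in KO against fl (-0.52, adjusted p = 0.0186) and gave -0.27 in Gr_1 against fl (adjusted p = 0.056). Its KO call was lost without KO C, without fl A and without fl C. In KO against fl the count fell to 0 higher and 1 lower without KO C, 1 higher and 1 lower without fl A, and 1 higher and 2 lower without fl B, so that count depends on those libraries.

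Among the ligands and adhesion molecules, 1 of the 9 tested was higher and 2 lower in KO against fl, and 3 were higher and 3 lower in Gr_1 against fl. These calls were 33.3% and 66.7% of the list, against 11.0% and 61.4% of all genes tested. The Gr_1 share was thus near that of all genes. Fn1, fibronectin, the matrix ligand of VLA-4, fell to 88.3 ± 0.84 FPKM in KO and 26.7 ± 5.5 FPKM in Gr_1, against 257 ± 12 FPKM in fl (-1.53, adjusted p = 0.000456, and -3.23, adjusted p = 6.3e-07). Icam1, the ligand of LFA-1 and Mac-1, held 3.82 FPKM in KO, 2.80 FPKM in Gr_1 and 5.18 FPKM in fl (-0.36, adjusted p = 0.027, and -0.71, adjusted p = 0.000112), and its KO call was lost in 5 of 9 fits that each left out 1 library. Pecam1, which encodes the junction molecule CD31, rose in both (0.37, adjusted p = 0.0333, and 0.24, adjusted p = 0.0437), with each call lost in 5 of 9 such fits. Vcam1, the VLA-4 ligand of vessel walls, fell in Gr_1 against fl (-0.82, adjusted p = 0.0258), a call lost in 4 of 9 such fits, and held 12.3 and 32.6 FPKM in KO A and KO B. In KO against fl the list had 0 to 2 higher and 1 to 3 lower over those fits, with 0 higher and 1 lower when KO C, fl A or fl B was left out. Ceacam1 rose in Gr_1 against fl (0.84, adjusted p = 0.000876). Cd177, a neutrophil surface protein, rose in Gr_1 to 1391 FPKM, against 423 FPKM in fl (1.72, adjusted p = 6.6e-06), with 564 FPKM in KO (0.41, adjusted p = 0.058).

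The activation genes, which encode talin, kindlin and the adaptors that switch integrins on, were mostly higher in Gr_1 than in fl and than in KO. Of 28 tested, 0 were higher and 2 lower in KO against fl, 19 higher and 1 lower in Gr_1 against fl, and 0 higher and 21 lower in KO against Gr_1, with medians of -0.05, 0.51 and -0.61. In the same order, 7.14%, 71.4% and 75.0% of the list were called, against 11.0%, 61.4% and 55.7% of all genes tested. Rassf5, the Rap1 effector RAPL, held 40.3 FPKM in KO, 74.7 FPKM in Gr_1 and 41.1 FPKM in fl (Gr_1 against fl 0.85, limma adjusted p = 1.7e-05), and Pxn, paxillin, held 62.7 FPKM in KO, 118 FPKM in Gr_1 and 58.1 FPKM in fl (1.01, adjusted p = 4.2e-05). Skap2, an adaptor of beta 2 integrin activation, rose by 0.71 in Gr_1 against fl (adjusted p = 2.3e-05). Tln1, talin-1, rose by 0.28 in Gr_1 against fl (adjusted p = 0.037) and gave -0.20 in KO against fl (adjusted p = 0.24). Its Gr_1 call was lost in 6 of 9 fits that each left out 1 library. Fermt3, kindlin-3, gave -0.14 and -0.07 and passed in neither (adjusted p = 0.35 and 0.52). Parvb, which encodes beta-parvin, fell in both (-0.71 and -0.63; the KO call was lost without KO C), and Lyn fell in KO (-0.39, adjusted p = 0.0435) and rose in Gr_1 (0.36, adjusted p = 0.014), with the KO call of Lyn lost in 8 of 9 such fits. The KO against fl count was 0 to 1 higher and 0 to 3 lower over the fits that left out 1 library. It had 0 lower without KO C and 1 higher without fl C. At an unadjusted limma p under 0.05, 0 were higher and 4 lower in KO against fl. The neutrophil marker sum was also higher in Gr_1, and its part in the result was not tested.

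**Figure D4:**
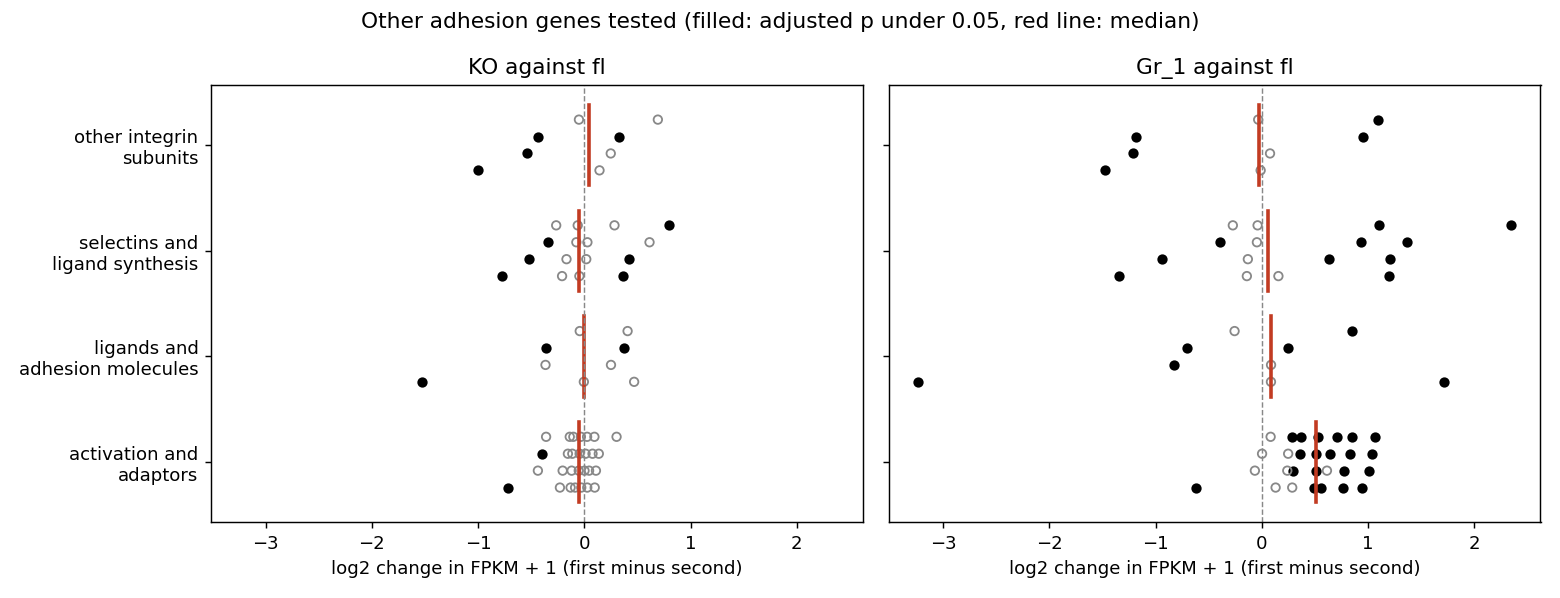
Log2 change of each tested gene in the 4 adhesion lists in KO against fl (left) and Gr_1 against fl (right), filled where the adjusted p was under 0.05, with the list median as a red line. In Gr_1 against fl the activation genes sit at a median of 0.51, against -0.05 in KO against fl.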

How the data were processed

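The authors deposited FPKM values for 9 libraries; per the submitters' processing notes, which give no roles, the tools were featureCounts (version 1.5.0-p3) and DESeq2 (version 1.16.1) and the builds mm10 and GRCm38, with no aligner named. Multiplying FPKM by exon lengths of GENCODE M21 gave whole fragments within 0.02 for 97.2% to 97.5% of low values. The implied denominators, 16.0 to 22.0 M, followed median-of-ratios size factors, so FPKM totals differ between libraries. In these units 3 fragments at 1 kilobase of exon equal 0.136 to 0.187 FPKM, which covers counting error only.

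Genes were tested if 3 or more libraries reached 1 FPKM. All 9 libraries entered 1 limma fit (version 3.58.1 under R 4.3.3, trended variance) of log2(FPKM + 1), with 1 term per group. Tests were two-sided, Benjamini-Hochberg adjustment ran over all 12289 genes, and calls needed an adjusted p below 0.05. A fold is the ratio of 2 mean FPKM values. Tables and figures used Python 3.11.15 (pandas 2.3.3, matplotlib 3.10.9) and exact tests scipy 1.17.1. Members and lists were chosen with earlier results of these data known. From each adhesion list the rule names up to 3 called genes per direction with the smallest adjusted p in KO against fl and Gr_1 against fl, plus Itgad, Fut7, Tln1, Fermt3, Icam1 and Fn1; 1 further gene of the rule is not reported here. In a trial on simulated data (KO against fl, 12067 genes), the fit recovered 78.8% of 99 genes changed 2-fold and 94.9% of 98 changed 4-fold, and called 9 other genes. The simulation gave all genes and groups the same spread setting, no Gr_1 change and independent libraries. These data differ in that, so the recovery may not hold for them. Alternatives covered the pseudocount, filter, scaling, libraries, voom and a replicate block.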

Additional observations from a re-analysis of the deposited data

How the results depend on the processing

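Of 408 member results under alternatives, 402 kept their direction and side of the threshold, 3 gained a call, 2 lost one and 1 reversed: Itgb2 in KO against fl was -0.0027 without KO A (adjusted p = 0.989) and up to 0.27 over the other left-out libraries, the highest without KO B. A fitted change cannot move under the other filters, the replicate block or the fit of only the 6 libraries compared. Nor can it move when a library of the group not compared is left out. In those settings direction was fixed and only the adjusted p could change. Gains were Itgam in KO against fl without KO B (0.31), Itga4 in KO against fl without fl C (-0.37) and Itgax in KO against Gr_1 without KO A (-0.46), and the losses were Itga4 in KO against Gr_1 without KO A (0.38) and without Gr_1 A (0.36). Members called in KO against fl ranged from 1 to 2 when single libraries were left out. The KO against fl count of all genes was 1352. It was 794 when only the 6 libraries compared were fitted, and from 573 (without KO C) to 1261 (without KO B) when single libraries were left out, with 818 without fl A and 730 without fl B; the cause was not tested. Scaling without the 10 most abundant genes moved the share of calls that were higher from 40.8% to 58.5% in KO against fl and from 48.0% to 65.2% in KO against Gr_1, with voom at 51.1% in KO against fl, but no member changed direction. With the letter as a replicate block, 1037, 7280 and 6469 genes were called in KO against fl, Gr_1 against fl and KO against Gr_1, and no member call changed. The labels do not say whether the letters pair the libraries. Same-lettered deviations correlated at -0.06 to 0.14, which cannot exclude pairing.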
